A study of Mus musculus with 6 samples.

Results

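Probe sets that the platform annotation assigns to 2 or more gene symbols were compared between mouse embryonic stem (ES) cells grown with and without vitamin C. They are 1613 of the 35557 probe sets in the table of array values. Of the others, 21797 have 1 symbol and 12147 have no symbol in the annotation used here. The rule reads the annotation and no measured value. RNA came from ES cells of the Oct4-GiP line, grown without feeder cells on gelatin in serum-free N2B27 medium. Both groups received leukaemia inhibitory factor (LIF), the MEK inhibitor PD0325901 and the GSK3β inhibitor CHIR99021. The treated group had L-ascorbic acid 2-phosphate, a stable form of vitamin C, at 200 μg/ml for 72 h, and the untreated group had the same medium without it. Each group has 3 one-colour Affymetrix arrays, which the series describes as biological triplicates of this 1 line.

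Recently duplicated genes are so alike in sequence that a probe can pair with RNA from several copies. A value from such a probe set is the joint signal of the copies, and it cannot be assigned to any 1 of them. Several such families, among them the X-linked MAGE-A, Xlr and Fthl17 genes and many PRAME-like genes, are known for expression in germ cells, and DNA methylation takes part in silencing a number of germline genes in other cells. Vitamin C is a cofactor of iron- and 2-oxoglutarate-dependent dioxygenases, which include the Tet enzymes that oxidise methylated cytosine, and the series asks what it changes in ES cells.

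The 1613 probe sets carry 2016 different symbols, between 2 and 20 each with a median of 3. They fall into 790 different lists of symbols, and 287 of these lists recur on more than 1 probe set. Some probe sets also repeat each other's values: 259 of the 1613 have the same 6 values as another one, which leaves 1447 distinct profiles. Counts below are of probe sets, with profiles where the difference matters. By the spelling of their symbols, 730 probe sets list named copies of 1 family, 413 join a named gene with predicted genes, and 130 list predicted or clone-named genes only. The remaining ones are not all copies of 1 gene: 222 join named genes with unlike symbols, 67 list a small RNA with another gene, and 51 list small RNAs only. Among the 219 of those 222 whose genes a RefSeq gene table places, 131 have genes on several chromosomes and 55 have genes that lie next to each other.

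The sequences below are examples of the start sites of copies, from lists that carried the largest differences. They are RefSeq promoter windows (GRCm38.p6) of 250 bases before and 50 bases after the annotated start, read 5′ to 3′ on the gene's strand, and capitals mark each CG dinucleotide, the usual site of DNA methylation. Xlr5a and Xlr5b stand for the Xlr5 list, Magea5 for the MAGE-A list, Fthl17c for the ferritin-like list, Pramel3 for an X-linked PRAME-like list and Zscan4c for the list with the largest repeated decrease.
Xlr5a (chrX:73117653-73117952, minus strand): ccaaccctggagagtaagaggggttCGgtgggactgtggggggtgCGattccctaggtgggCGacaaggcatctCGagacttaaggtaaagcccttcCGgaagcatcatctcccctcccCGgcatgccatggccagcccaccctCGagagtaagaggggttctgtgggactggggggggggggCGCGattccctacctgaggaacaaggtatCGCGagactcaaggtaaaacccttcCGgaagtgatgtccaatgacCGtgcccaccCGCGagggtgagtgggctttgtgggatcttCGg
Xlr5b (chrX:73148591-73148890, plus strand): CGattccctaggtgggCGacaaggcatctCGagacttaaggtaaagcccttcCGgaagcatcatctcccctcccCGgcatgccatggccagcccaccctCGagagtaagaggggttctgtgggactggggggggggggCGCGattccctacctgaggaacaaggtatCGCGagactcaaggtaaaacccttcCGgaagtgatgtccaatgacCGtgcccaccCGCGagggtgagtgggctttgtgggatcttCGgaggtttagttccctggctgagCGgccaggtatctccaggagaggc
Magea5 (chrX:155061504-155061803, minus strand): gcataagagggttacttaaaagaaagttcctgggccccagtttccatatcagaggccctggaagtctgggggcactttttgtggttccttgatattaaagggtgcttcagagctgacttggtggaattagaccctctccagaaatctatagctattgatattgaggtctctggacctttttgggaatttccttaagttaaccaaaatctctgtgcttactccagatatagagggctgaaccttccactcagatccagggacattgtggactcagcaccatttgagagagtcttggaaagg
Fthl17c (chrX:8976510-8976809, minus strand): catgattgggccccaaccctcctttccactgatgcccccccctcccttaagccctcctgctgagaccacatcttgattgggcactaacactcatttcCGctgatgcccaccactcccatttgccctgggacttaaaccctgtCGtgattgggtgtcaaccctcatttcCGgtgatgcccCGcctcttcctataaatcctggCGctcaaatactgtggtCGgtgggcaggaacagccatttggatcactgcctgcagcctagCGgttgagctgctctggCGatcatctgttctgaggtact
Pramel3 (chrX:135302066-135302365, plus strand): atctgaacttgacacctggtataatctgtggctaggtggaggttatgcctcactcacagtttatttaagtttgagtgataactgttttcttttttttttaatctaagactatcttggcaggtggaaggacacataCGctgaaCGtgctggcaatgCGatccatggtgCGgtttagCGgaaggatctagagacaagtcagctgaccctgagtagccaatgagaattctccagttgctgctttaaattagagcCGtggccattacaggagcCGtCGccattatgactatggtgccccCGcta
Zscan4c (chr7:11005495-11005794, plus strand): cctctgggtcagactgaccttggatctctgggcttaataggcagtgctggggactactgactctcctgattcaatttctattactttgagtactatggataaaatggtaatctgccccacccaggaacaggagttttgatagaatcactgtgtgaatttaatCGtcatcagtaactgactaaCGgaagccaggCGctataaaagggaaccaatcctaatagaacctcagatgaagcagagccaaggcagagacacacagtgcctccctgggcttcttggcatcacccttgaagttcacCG

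The Xlr5a and Xlr5b windows hold a common run of 255 bases and 16 CG dinucleotides each, while the window of the third gene of that list, Xlr5c, has 1 CG. Over the 3 Xlr5 genes the windows were 41.7% to 70% identical. Identity was taken from an end-to-end alignment with gaps, counting each changed, missing or added base against the 300 bases. This measure scores copies with offset annotated starts, as Xlr5a and Xlr5b have, lower than their shared runs would. Between lists, Xlr3a, Xlr4a and Xlr5a compared with each other and Magea5 with Xlr5a scored 43.7% to 47%. Values at that level do not show likeness between copies. CG counts ran from 0 in Magea5 and Magea3 to 10 in Magea8 across the 6 MAGE-A windows, from 8 to 11 across the 5 Fthl17 windows, from 9 to 10 across the 5 of the Pramel3 list and from 1 to 4 across the 4 Zscan4 genes with a window, beside a median of 7 over 32851 windows of 300 bases. The copies were 87.7% to 100% identical in the Pramel3 list (median 94.5%) and 75% to 95.7% in the Zscan4 list (median 82.5%). They were 54.3% to 92% identical in the Fthl17 list (median 60.7%) and 45.7% to 85.3% in the MAGE-A list (median 48.3%). These are descriptions of letters only.

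Over all 35557 probe sets, 5.95% were called at an adjusted p under 0.05 (limma, Benjamini-Hochberg over the whole table), 2.94% higher and 3.01% lower with vitamin C. Of the 1613 shared probe sets, 150 were called (9.30%), 115 higher and 35 lower. In distinct profiles these are 99 higher and 31 lower. Among probe sets with 1 symbol, 7.19% were called, 3.13% higher and 4.06% lower. The difference, vitamin C minus untreated in log2 units, had a median of 0.0072 over the shared probe sets and 0.0092 over all probe sets, so the middle of the shared set lay close to that of the whole array. It ranged from -1.12 to 2.83. At least a doubling was seen in 60 of the probe sets called higher (48 profiles), and at least a halving in 5 of those called lower. Over all 35557 probe sets these counts were 237 and 70. All 3 vitamin C arrays lay above all 3 untreated arrays for 299 shared probe sets and below them for 237. Such separation held for 29% of all probe sets, 14.5% in each direction.

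The calls fell on 79 symbol lists, 55 with higher and 24 with lower calls, and 0 lists had calls in both directions. With 1 array left out, whichever it was, 53 to 71 shared probe sets were called higher and 9 to 11 lower. A core of 56 calls, 49 higher and 7 lower on 25 lists, was kept whichever array was left out. The MAGE-A, Xlr5, Xlr4, Fthl17, Dmrtc1c, Pramel3, 1700024B05Rik and Zscan4 lists below belong to this core with each of their probe sets. For most other named calls it is said whether they were kept. Calls of single-symbol relatives are treated in the same way.

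**Figure D1:**
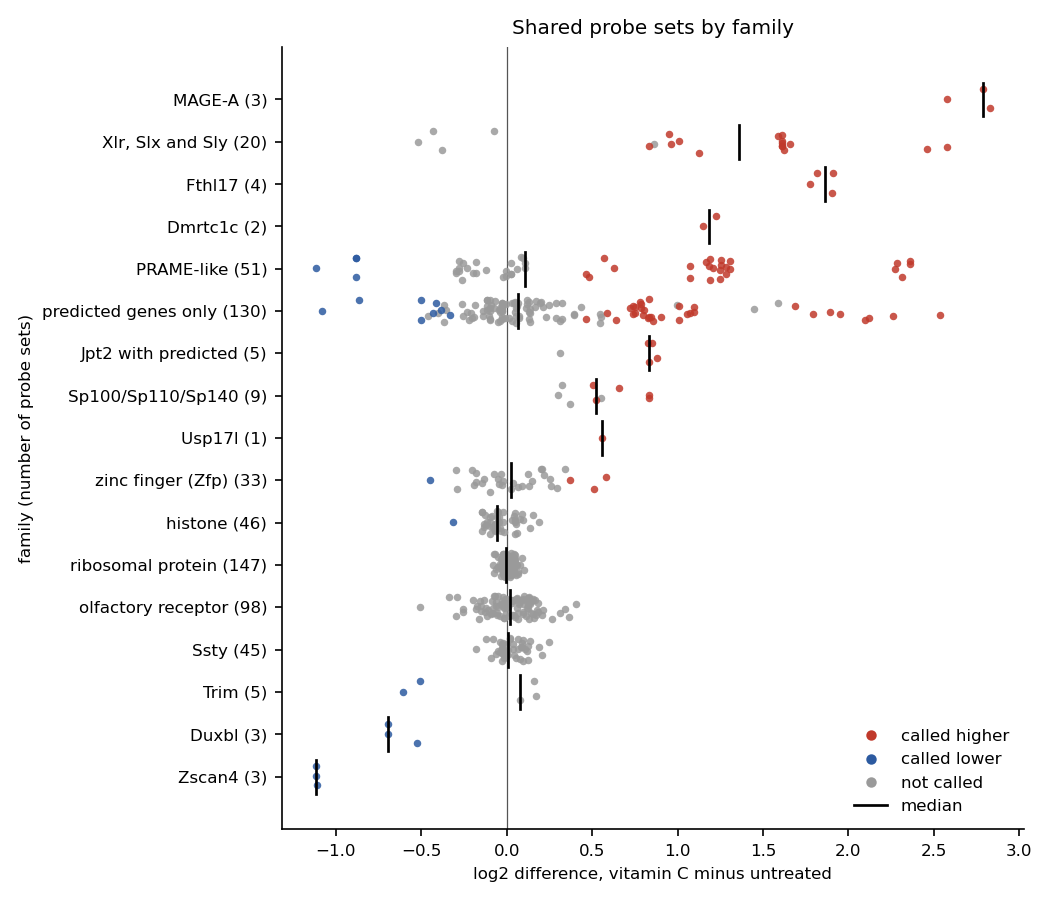
Differences of shared probe sets by family. The horizontal axis is the log2 difference, vitamin C minus untreated (3 arrays each), each point is 1 probe set, red points were called higher, blue ones lower and grey ones neither, and black bars are medians; vertical scatter within a row only separates points. The 3 MAGE-A, 4 Fthl17 and 15 of 20 Xlr-family points lie to the right among the called, the 3 Zscan4 points lie to the left at -1.12 to -1.11, and the 147 ribosomal protein points lie between -0.08 and 0.10.

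The MAGE-A genes, X-linked cancer-testis antigens that bind ubiquitin ligases, showed the largest increases. Probe set 10607454, listed for Magea1, Magea2, Magea3, Magea5, Magea6 and Magea8, read 4.40, 4.47 and 4.40 on the untreated arrays and 7.28, 7.43 and 7.06 on the vitamin C arrays. The 2 groups lie far apart, and the spread inside each is small against the gap. The difference was 2.83 ± 0.10 (SE, 3 arrays each; adjusted p = 0.00035), about 7.11-fold. Probe set 10607443 of the same list rose by 2.79 ± 0.09 (adjusted p = 0.000282). Probe set 10607437, listed for Magea3 and Magea8, read 3.10, 3.63 and 2.89 without and 5.95, 5.84 and 5.56 with vitamin C. Its untreated values lie below the lower quartile of every array, where signals of arrays flatten, and its difference was 2.58 ± 0.21 (adjusted p = 0.00415). Probe sets with 1 MAGE-A symbol give a view of single copies: 6 of 7 were called higher and 0 lower, with Magea5 at 3.35 ± 0.23 (adjusted p = 0.0025) and Magea6 at 2.86 ± 0.18 (adjusted p = 0.00185). These 2 calls were kept whichever array was left out. Those of Magea10 and Magea7-ps were lost with any 1 array left out (adjusted p up to 0.138 and 0.126). The Magea4 call was lost without untreated replicate 3 or any vitamin C array (adjusted p up to 0.0616). The Magea3 call was lost without vitamin C replicate 1 (adjusted p = 0.0553).

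The Xlr superfamily, named for X-linked lymphocyte-regulated genes and related to a protein of the synaptonemal complex, had 15 of its 20 shared probe sets called higher and 0 lower, with a median of 1.36. The size of the increase followed the subfamily. Probe set 10605044, for Xlr5a, Xlr5b and Xlr5c, read 6.50, 6.90 and 6.68 without and 9.27, 9.33 and 9.21 with vitamin C. No array of one group came near the other, and the difference was 2.58 ± 0.11 (adjusted p = 0.000542). The Xlr4a, Xlr4b and Xlr4c list has 3 probe sets. The one with the largest change, 10605034, read 6.88, 7.12 and 7.07 without and 8.70, 8.77 and 8.58 with vitamin C, and all 3 rose by 1.59 to 1.66. Xlr3a, Xlr3b and Xlr3c, of which Xlr3b is known for imprinted expression in the brain, share 3 probe sets that rose by 0.83 to 0.96. Of these, 10600122 read 7.23, 7.26 and 7.49 without and 8.32, 8.34 and 8.20 with vitamin C, a smaller gap than for Xlr4 or Xlr5 but again without overlap. The smallest of the 3 increases, on 10604996, lost its call without untreated replicate 1 or 2 or vitamin C replicate 1 or 2, at adjusted p up to 0.0666. The other 2 calls of this list were kept whichever array was left out.

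Slx, an X-linked gene of spermatids present in many copies, and Sly, its relative on the Y chromosome, are members of the same superfamily. The Slx lists join Slx with numerous predicted copies. Probe set 10599075 read 4.75, 4.92 and 5.03 without and 6.31, 6.59 and 6.63 with vitamin C, a rise of 1.61 ± 0.12 (adjusted p = 0.00291). That profile recurs on 5 probe sets and is 1 measurement. Over the Slx lists, 7 of 8 probe sets were called higher, in 4 distinct profiles in all, and the uncalled one differed by 0.86 ± 0.18 (adjusted p = 0.0551). The 7 calls were kept whichever array was left out. For Sly, 0 of 4 probe sets were called, with differences from -0.52 to -0.08. One of them, 10608523, read 4.65, 5.34 and 5.24 without and 4.94, 4.40 and 4.33 with vitamin C, and its groups overlap. For 1 of the 4, all vitamin C arrays lay below all untreated arrays, as for 14.5% of all probe sets. Xlr itself, on a probe set of 1 symbol, differed by 1.12 ± 0.24 (adjusted p = 0.0556).

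Fthl17, a family of X-linked ferritin heavy chain-like genes expressed in germ cells and the early embryo, had its 4 shared probe sets called higher by 1.78 to 1.91. Probe set 10598565 for Fthl17c, Fthl17d, Fthl17e, Fthl17f and Fthl17-ps1 read 8.44, 8.65 and 8.63 without and 10.45, 10.52 and 10.48 with vitamin C. The untreated readings were already above the median of their arrays. Its difference was 1.91 ± 0.07 (adjusted p = 0.000408). Among single symbols, Fthl17f rose by 1.51 ± 0.17 (adjusted p = 0.0103; up to 0.0547, and lost, without untreated replicate 1 or vitamin C replicate 1 or 2), while Fthl17a differed by 0.21 ± 0.13 (adjusted p = 0.428).

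Dmrtc1c1 and Dmrtc1c2, X-linked genes named for their likeness to the Doublesex-related transcription factors, share 2 probe sets. One, 10606138, read 8.17, 8.05 and 8.14 without and 9.29, 9.41 and 9.33 with vitamin C. It rose by 1.22 ± 0.06 (adjusted p = 0.00107) and the other by 1.15 ± 0.06 (adjusted p = 0.00127). The promoter windows of these 2 genes are 99.7% identical. Among single-symbol relatives, Dmrtc1a and Dmrtc1b were not called (0.14 and -0.01), and Dmrtc2 fell by 0.72 (adjusted p = 0.0369), a call lost with any 1 array left out (adjusted p up to 0.109).

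**Figure D2:**
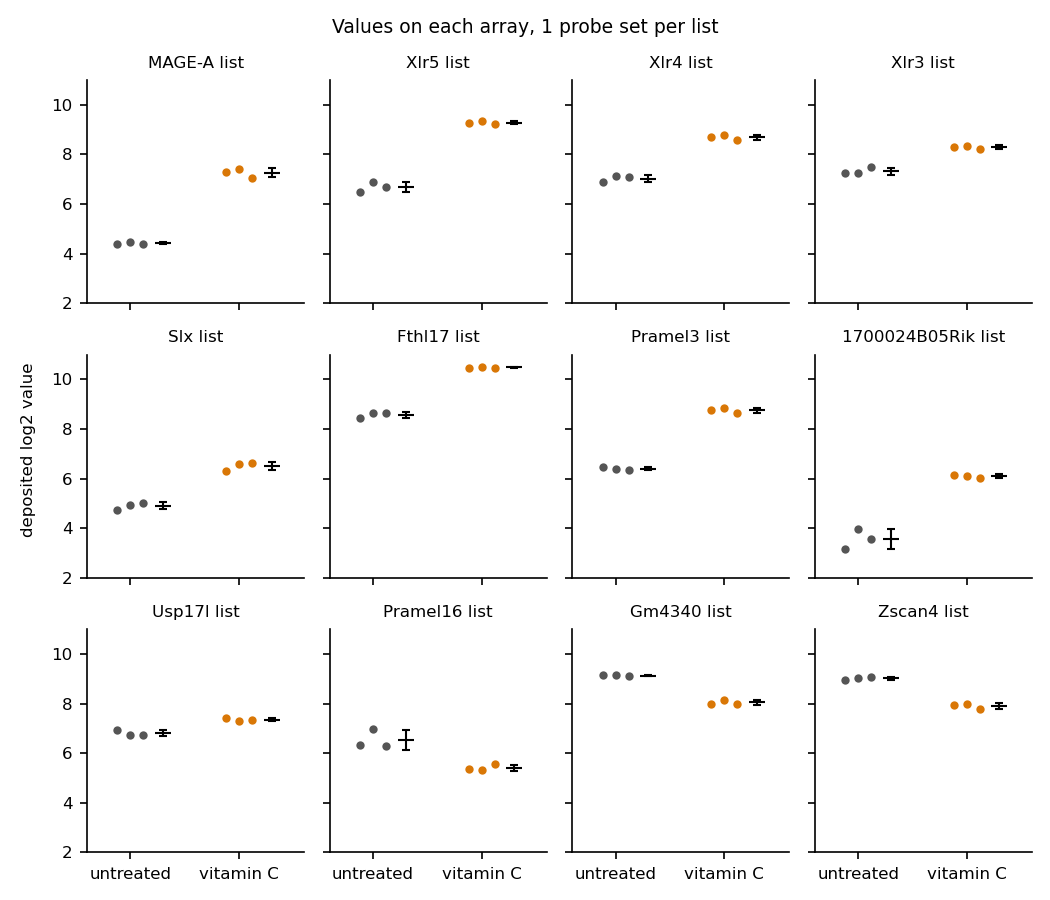
Values on each of the 6 arrays for the probe set with the largest difference in each of 12 groups of lists. The vertical axis is the deposited log2 value, grey points are the 3 untreated and orange points the 3 vitamin C arrays, and bars are the mean ± SD of each group; the MAGE-A probe set rises from 4.40 to 4.47 up to 7.06 to 7.43, while the Zscan4 probe set falls from 8.94 to 9.06 down to 7.77 to 7.97.

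Fewer cells expressing a gene and less RNA per cell cannot be told apart in these bulk samples, nor can their opposites.

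PRAME-like genes encode leucine-rich repeat proteins related to a human tumour antigen and are expressed in germ cells, oocytes and early embryos. With 51 shared probe sets (37 profiles) on 8 lists, this family had 24 called higher, 4 lower and 23 neither, so its median of 0.11 describes no list well. With 1 array left out, 14 to 21 were called higher and 0 to 1 lower. The X-linked list of Pramel3 and predicted copies had 5 of 5 called higher, by 2.27 to 2.36. Its probe set 10601797 read 6.48, 6.38 and 6.35 without and 8.76, 8.86 and 8.66 with vitamin C, an increase of 2.36 ± 0.08 (adjusted p = 0.000282). No treated array came within 2 log2 units of an untreated one.

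The largest PRAME-like lists, with Pramel38, Pramel42 and Pramel48, had 19 of 19 probe sets (13 profiles) called higher, by 0.46 to 1.31. Probe set 10536021 read 4.12, 4.24 and 4.13 without and 5.38, 5.58 and 5.45 with vitamin C (1.31 ± 0.08, adjusted p = 0.00139). Probe set 10523329, which also lists Pramel47, had the smallest of these increases, 0.46 ± 0.08 (adjusted p = 0.0268), and lost its call with any 1 array left out (adjusted p up to 0.0917). In all, 9 of the 19 calls were kept whichever array was left out. The opposite change was seen for Pramel16, Pramel20 and Pramel31 with 3 predicted copies, where 4 of 4 probe sets were called lower, in 2 distinct profiles. Probe set 10510112 read 6.33, 6.99 and 6.28 without and 5.35, 5.34 and 5.56 with vitamin C, and untreated replicate 2 stands highest. It fell by 1.12 on the log2 scale (SE 0.20, adjusted p = 0.0375), and this call was lost without any array other than untreated replicate 2, at adjusted p up to 0.125. The other 3 share 1 profile at -0.88 ± 0.14 (adjusted p = 0.0255), whose call was lost with any 1 array left out (adjusted p from 0.0533 to 0.0864).

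The remaining PRAME-like lists had 0 of 23 probe sets called. The 11 of Pramel37, Pramel39 and Pramel50 lay between -0.30 and -0.18. The 7 of Pramel34 and Pramel47, the 3 of the list with the oocyte gene Oog1 and the 2 of Pramel4 and Pramel5 lay between -0.12 and 0.11, and their readings of 1.81 to 3.51 on any array fall short of the smallest array lower quartile, 3.99. On probe sets of 1 symbol, 4 PRAME-like genes were called higher, 1 lower and 10 neither. Pramel6, an oocyte and ES cell gene, stood at 3.26 ± 0.11 (adjusted p = 0.000347), Pramel12 at 1.75 ± 0.09 (adjusted p = 0.00108) and Pramel7 at 0.69 ± 0.09 (adjusted p = 0.0155), while Pramel19 fell by 0.62 (adjusted p = 0.0205). The Pramel6 and Pramel12 calls were kept whichever array was left out, that of Pramel7 only without untreated replicate 1 or 2 (adjusted p up to 0.0666) and that of Pramel19 only without vitamin C replicate 2 (adjusted p up to 0.0823).

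**Figure D3:**
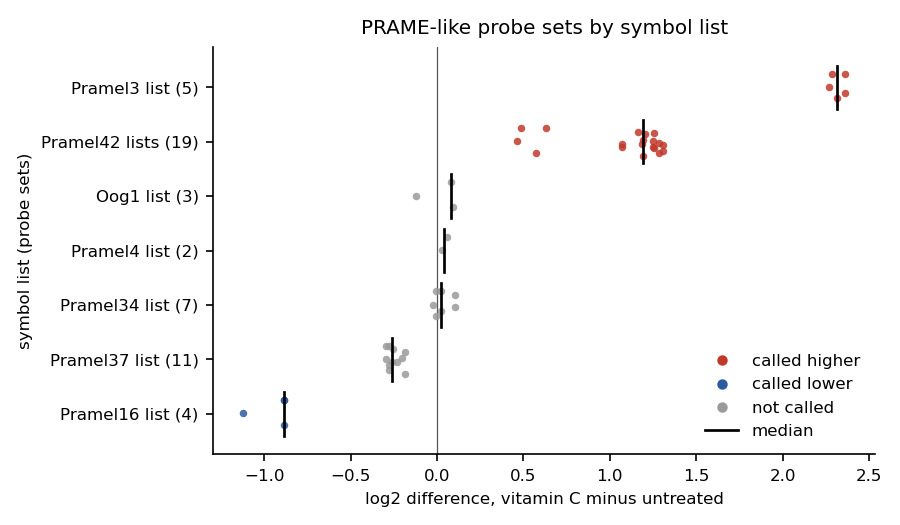
PRAME-like shared probe sets by symbol list. The horizontal axis is the log2 difference, vitamin C minus untreated (3 arrays each), each point is 1 probe set coloured by its call, and black bars are medians; the 5 Pramel3 points sit at 2.27 to 2.36, the 19 Pramel42 points at 0.46 to 1.31 and the 4 Pramel16 points at -1.12 to -0.88.

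Probe sets that list predicted or clone-named genes only, most of them without a known function, number 130, of which 33 were called higher and 8 lower (median 0.07). With 1 array left out these counts were 9 to 24 higher and 2 lower, and without moderation of the spread 16 and 6. Of 1431 probe sets with 1 predicted or clone-named symbol, 29 were called higher and 34 lower (median 0.03). Higher calls thus outnumbered lower ones on the shared probe sets and not on those with 1 symbol. Of the 33, however, 7 lay on the 1700024B05Rik lists, 6 on the Gm17026 lists and 12 on the Gm3411 or Gm3558 lists. Within each of these groups the lists overlap in symbols, so the calls are not independent, and the contrast was not tested. A cluster of lists that share 1700024B05Rik with its neighbours 1700049E17Rik1 and 1700049E17Rik2 had 7 of 7 called higher, by 1.79 to 2.54. Probe set 10414241 read 3.15, 3.98 and 3.57 without and 6.16, 6.12 and 6.03 with vitamin C (2.54 ± 0.21, adjusted p = 0.00402). The untreated arrays scatter near the lower quartile while the treated ones agree closely. Probe set 10414245 of the same cluster, with untreated values of 6.22, 6.25 and 6.35, shows the increase from a brighter start, to 8.22, 8.40 and 8.06 (1.95 ± 0.10, adjusted p = 0.000949).

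Lists built around Gm3411 and Gm3558, predicted genes on chromosome 14, had 12 of 13 probe sets (11 profiles) called higher by 0.64 to 0.86. Of these, 10417504 read 5.997, 6.03 and 6.09 without and 6.96, 7.01 and 6.73 with vitamin C (0.86 ± 0.09, adjusted p = 0.00817), and it was the 1 call among the 12 kept whichever array was left out. Further probe sets add Jpt2, a homologue of a microtubule-associated protein, to many of the same predicted genes. Of these, 4 of 5 were called higher by 0.82 to 0.88 (2 to 3 with 1 array left out). Whichever array was left out, 2 of the 4 calls were kept. The 2 probe sets with 1 Jpt symbol were not called, and their median was -0.16. The Gm17026 lists had 6 of 8 called higher by 1.01 to 1.69, and each of these 6 calls was lost without at least 5 of the 6 arrays. The largest, 10419116, read 4.47, 4.31 and 3.44 without and 6.05, 5.72 and 5.51 with vitamin C, so untreated replicate 3 is the lowest. Its difference was 1.69 ± 0.30 (adjusted p = 0.0341), and the call was kept only with untreated replicate 3 left out, with adjusted p from 0.0413 to 0.112 over the 6 omissions. Gm31714 and Gm10324 share a bright probe set that read 8.61, 8.54 and 8.39 without and 9.79, 9.53 and 9.51 with vitamin C (1.10 ± 0.10, adjusted p = 0.006). Its call was kept whichever array was left out.

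The largest decreases among predicted genes were those of Gm4340 and its copies. Probe set 10366180 read 9.15, 9.14 and 9.10 without and 7.99, 8.16 and 7.995 with vitamin C, a fall of 1.08 on the log2 scale (SE 0.07, adjusted p = 0.00185). Probe set 10366070, whose longer list includes the same genes, read 8.17, 8.03 and 7.98 without and 7.24, 7.27 and 7.06 with vitamin C (-0.87 ± 0.09, adjusted p = 0.00798). Both were bright, neither overlapped, and both calls were kept whichever array was left out. Lists with Gm4983 had 5 of 6 called lower by smaller amounts, from -0.50 to -0.33, and each of these 5 calls was lost with any 1 array left out (adjusted p up to 0.101).

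Zscan4 genes encode zinc finger and SCAN domain proteins of the 2-cell embryo, which appear in a small, changing fraction of ES cells. Zscan4a, Zscan4b, Zscan4c, Zscan4d and Zscan4f share 3 probe sets, and the 3 were called lower. Probe set 10549964 read 8.94, 9.05 and 9.06 without and 7.96, 7.97 and 7.77 with vitamin C. The groups are separated by nearly the whole difference, which was -1.12 ± 0.08 (adjusted p = 0.0027). The other two fell by 1.11 (adjusted p = 0.00291 and 0.00311). Calls on other genes of the 2-cell stage went in both directions. Tcstv3, on a probe set of 1 symbol, read 7.29, 7.34 and 7.22 without and 6.51, 6.64 and 6.47 with vitamin C and fell by 0.74 (SE 0.07, adjusted p = 0.00631), a call kept whichever array was left out.

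Duxbl1 and Duxbl2, double-homeobox genes, share 3 probe sets (2 profiles) that fell by 0.53 to 0.69. Probe set 10413255 read 4.75, 4.73 and 4.73 without and 4.23, 3.81 and 4.10 with vitamin C (-0.69 ± 0.11, adjusted p = 0.0279). Its call was kept only without vitamin C replicate 1 or 2 (adjusted p up to 0.0951). Usp17l genes encode deubiquitinating enzymes. Their 1 shared probe set, for Usp17la, Usp17lc, Usp17ld and Usp17le, went the other way from Zscan4. It read 6.94, 6.74 and 6.72 without and 7.44, 7.30 and 7.35 with vitamin C, a rise of 0.56 ± 0.08 (adjusted p = 0.0212) that was kept only without untreated replicate 1 (adjusted p from 0.0353 to 0.0798). The 4 single-symbol Usp17l probe sets differed by 0.28 to 0.58 and 0 of them were called. Of the Tdpoz genes, germline BTB-domain genes, 0 of 5 shared probe sets were called, while singly Tdpoz1 rose by 0.41 (adjusted p = 0.0491) and Tdpoz3 fell by 0.98 (adjusted p = 0.0494), 2 calls lost with any 1 array left out (adjusted p up to 0.145 and 0.137). Zfp352 differed by 0.27 ± 0.17 (adjusted p = 0.44).

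Rhox homeobox genes, an X-linked reproductive cluster, have 0 shared probe sets here. In 8 probe sets of 1 symbol, 3 were called higher and 0 lower: Rhox13 by 2.42 ± 0.14 (adjusted p = 0.00128), Rhox1 by 0.67 ± 0.13 (adjusted p = 0.041) and Rhox9 by 0.63 ± 0.11 (adjusted p = 0.0373). The Rhox13 call was kept whichever array was left out, and those of Rhox1 and Rhox9 were lost with any 1 left out (adjusted p up to 0.11).

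Several smaller families also carried higher calls. Ly6c1 and Ly6c2, membrane antigens of lymphoid and myeloid cells, share 2 probe sets called higher. Probe set 10429568 read 5.76, 5.96 and 5.50 without and 6.90, 7.10 and 7.06 with vitamin C (1.28 ± 0.13, adjusted p = 0.00805). Its call was kept whichever array was left out. The other rose by 1.03 (adjusted p = 0.0198), a call kept only without untreated replicate 3 (adjusted p up to 0.0772). Shared probe sets of the nuclear body genes Sp110, Sp140 and Sp100 with predicted copies number 9 (8 profiles). Of them, 5 (4 profiles) were called higher, by 0.50 to 0.83. These 5 were near the threshold, at adjusted p of 0.0326 to 0.0491, and with 1 array left out 0 to 2 were called higher (adjusted p of the 5 up to 0.147). Spin2 genes, X-linked readers of methylated histone tails, had 2 of 9 called higher (0.30 and 0.28), both lost with any 1 array left out (adjusted p up to 0.127). Of 33 zinc finger (Zfp) probe sets, 3 were called higher and 1 lower (0 to 2 and 0 with 1 array left out). The highest was that of Zfp640 at 0.58 (adjusted p = 0.0173), kept only without vitamin C replicate 3 (adjusted p up to 0.0713).

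Lower calls outside these families were scattered over single lists. Trim5 and Trim12c, antiviral ubiquitin ligases, read 7.20, 7.29 and 7.32 without and 6.72, 6.58 and 6.70 with vitamin C on a shared probe set (-0.61 ± 0.07, adjusted p = 0.00937). That call was kept whichever array was left out. A second probe set, which also lists Trim12a, fell by 0.51 (SE 0.09, adjusted p = 0.0366), a call lost with any 1 array left out. Mnd1, whose product pairs homologous chromosomes in meiosis, fell by 0.56 together with its pseudogene (SE 0.06, adjusted p = 0.00999), a call lost without vitamin C replicate 1 or 2 (adjusted p up to 0.0511). Of 8 histocompatibility probe sets, 1 was called, lower. It is 1 of 2 for the class I genes H2-K1 and H2-D1 and read 7.01, 6.95 and 7.01 without and 6.42, 6.65 and 6.31 with vitamin C (-0.53 ± 0.10, adjusted p = 0.0378), a call kept only without vitamin C replicate 2 (adjusted p up to 0.124). The other probe set of these genes differed by -0.22 ± 0.11 (adjusted p = 0.335). The 2 Rtl8a and Rtl8b probe sets, X-linked genes derived from a retrotransposon, fell by 0.49 (adjusted p = 0.031) and fell by 0.44 (adjusted p = 0.0432), and with 1 array left out these calls had adjusted p up to 0.104 and 0.13.

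Probe sets of unlike symbols were called rarely, 1 higher and 3 lower of 222 (1.80%). The higher one joins Hnrnph3 and Aff3 (0.41, adjusted p = 0.0276) and kept its call only without vitamin C replicate 1 (adjusted p up to 0.0971). Snrpn and Snurf, an imprinted pair made from 1 transcript, read 9.15, 9.23 and 9.21 without and 8.64, 8.70 and 8.70 with vitamin C and fell by 0.52 (SE 0.06, adjusted p = 0.00881). Their call was kept whichever array was left out. Irgm2 and Igtp, interferon-induced GTPases that are relatives despite their unlike names, read 5.44, 5.12 and 5.35 without and 4.65, 4.43 and 4.66 with vitamin C (-0.72 ± 0.11, adjusted p = 0.0231). That call was kept only without untreated replicate 2 (adjusted p up to 0.0856). Cpne1 and Rbm12 fell by 0.44 (adjusted p = 0.0148), kept only without untreated replicate 1 (adjusted p up to 0.0666). The RefSeq windows of this pair are the same stretch of the genome, because the genes have 1 annotated start. A predicted readthrough gene, Gm44502, is listed with Cpt1b, the muscle form of the enzyme that brings fatty acids into mitochondria, and on another probe set with its neighbour Chkb, a choline kinase. The first fell by 0.77 (SE 0.10, adjusted p = 0.0147) and the second by 0.61 (SE 0.08, adjusted p = 0.0155), and with 1 array left out they reached adjusted p of 0.0666 and 0.0681. The first was kept only without untreated replicate 3 or vitamin C replicate 2, the second only without vitamin C replicate 3.

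Small RNAs are often encoded inside other genes, and a probe set may list both. Among 67 probe sets that list a small RNA with another gene, 1 was called, and among 51 of small RNAs only, 2 with 1 shared profile. Of the 67, 9 have genes on several chromosomes, so the other gene is not always a host. The mature sequences of the 2 miRNA genes concerned are given as RefSeq has them, with the seed, bases 2 to 8 of the miRNA, in capitals.
mmu-miR-675-5p: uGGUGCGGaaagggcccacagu
mmu-miR-675-3p: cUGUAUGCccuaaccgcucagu
mmu-miR-3084-5p: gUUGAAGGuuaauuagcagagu
mmu-miR-3084-3p: uUCUGCCAgucuccuucagac

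These 4 arms have 4 different seeds. Mir675 lies within the imprinted H19 transcript on chromosome 7. Its probe set also lists Supt6, a transcription elongation factor gene on chromosome 11 that is not its host. The values therefore cannot be given to one of them. They were 5.67, 6.05 and 6.05 without and 6.74, 7.06 and 7.04 with vitamin C, a rise of 1.03 ± 0.14 (adjusted p = 0.0189) that was kept only without untreated replicate 1 or vitamin C replicate 1 (adjusted p up to 0.0737). Mir3084-1 and Mir3084-2, 2 genes with the same mature sequences, are listed with the small nucleolar RNA Snora19. Their profile read 4.56, 4.39 and 4.37 without and 5.62, 5.11 and 5.06 with vitamin C (0.83 ± 0.16, adjusted p = 0.0465). It was kept only without vitamin C replicate 1 (adjusted p up to 0.139), the array with the highest value. Snord1b and Snord1c, at -0.96, were not called (adjusted p = 0.14). The 18 probe sets of Snord116l1 and Snord116l2 share 1 profile at -0.16 (adjusted p = 0.812), which sets the median of the class that lists a small RNA with another gene.

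Many large families had no call. The 147 probe sets of ribosomal proteins with their processed copies lay between -0.08 and 0.10. The 98 of olfactory receptors, 45 of the Y-linked Ssty genes, 38 of T cell receptor alpha segments, 38 of Vmn2r and 28 of Vmn1r pheromone receptors, 34 of Hmgb and 25 of Gapdh copies had 0 called. In all, 25 families and classes of at least 5 probe sets, with 606 probe sets, had 0 calls. Many of these were dim: 67 of the 98 olfactory receptor probe sets and 44 of the 45 Ssty probe sets had untreated means under the lowest array's lower quartile of 3.99, where small differences could not be seen. The ribosomal protein probe sets, at 11.2 to 13.3 on every array, were bright, and their differences were small in both directions. Other uncalled families leaned 1 way. The 6 Defa probe sets, 0 of them dim, differed by 0.24 to 0.68 (adjusted p from 0.0611 to 0.139). Each had all vitamin C arrays above all untreated arrays. The reverse held for 25 of 25 Gapdh (-0.11 to -0.08) and 14 of 14 Hnrnpa probe sets (-0.14 to -0.09). Over all probe sets such separation held for 14.5% in each direction.

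Of 46 shared probe sets for the replication-dependent and variant histones, 0 were called higher and 1 lower, with a median of -0.06 and a range of -0.32 to 0.19. The called one, for the linker histone H1f4 and H2bc6, read 6.63, 6.62 and 6.51 without and 6.22, 6.28 and 6.31 with vitamin C (-0.32 ± 0.06, adjusted p = 0.0452), and it was lost with any 1 array left out (adjusted p up to 0.137). With a trended and robust spread 2 histone probe sets were called higher and 9 lower, and without moderation 1 and 3. Probe sets of 1 histone symbol had 5 of 44 called lower and 0 higher, with differences of -0.86 for H3c15, -0.72 for H2bc21, -0.52 for H2bc3, -0.49 for H2ac4 and -0.42 for H1f2 (adjusted p = 0.0172, 0.04, 0.00921, 0.0322 and 0.0361). Of these 5, the H2bc3 call was kept whichever array was left out, and the others were lost without at least 4 of the 6 arrays, at adjusted p up to 0.126.

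By a RefSeq gene table (GRCm38.p6, matched for 1999 of 2016 gene IDs), 100 shared probe sets have all their placed symbols on the X chromosome. Of these, 36 were called higher and 4 lower (40% called), beside 79 higher and 31 lower of 1513 others (7.27%). Probe sets of 1 symbol on X had 49 higher and 40 lower calls of 790 (11.3%). The 36 are the MAGE-A, Xlr, Slx, Fthl17, Dmrtc1c and Pramel3 probe sets and 7 probe sets of the Spin2, DXBay18 and 1700003E24Rik lists, and they make up 31.3% of all higher calls where X-linked lists are 6.20% of the members. Probe sets of 1 family share probes and are not independent, and no test of this difference was made. The number of symbols on a probe set also went with its calls. Of those with 2 symbols 5.30% were called, of those with 3 to 4 symbols 7.21%, with 5 to 9 symbols 18.6%, and with 10 or more 15.9%, and their median signal fell in the same order from 7.11 to 4.34.

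**Figure D4:**
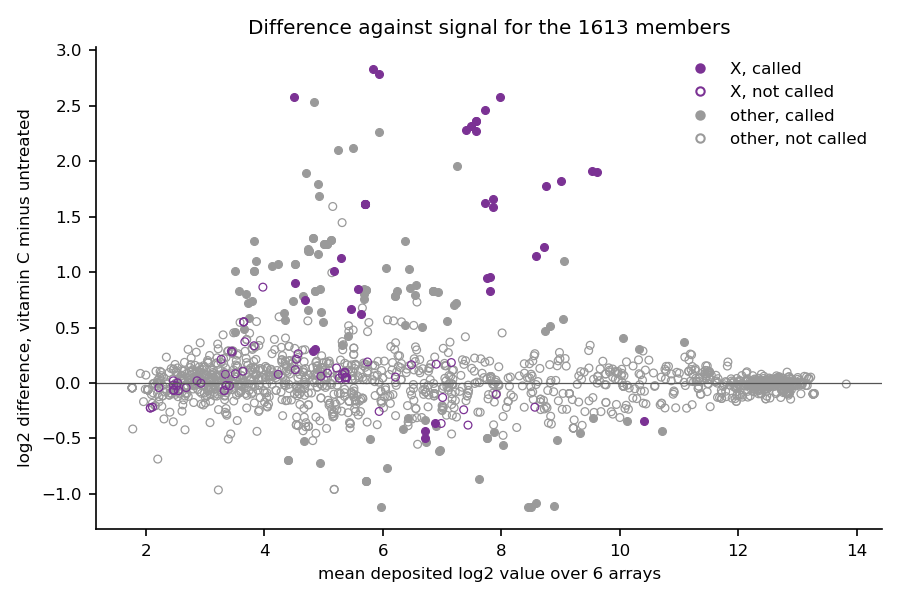
Difference against signal for the shared probe sets. The horizontal axis is the mean deposited log2 value over the 6 arrays, the vertical axis the log2 difference, vitamin C minus untreated; purple points have all placed symbols on X, grey points do not, and filled points were called. Most filled purple points lie above 0.5 at signals between 4 and 10, and the brightest probe sets, above 12, lie close to 0.

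The arrays were alike, with medians of 5.52 to 5.60 and correlations over all probe sets of 0.988 to 0.991 within and 0.984 to 0.986 between groups. Markers of ES cells were high on every array, 10 of 10 above the array median, with 2 called higher and 0 lower. Of 10 fibroblast markers, 7 were called higher, 0 lower, and 4 were above the array median on all arrays, and their mean level lay at 5.06 to 5.19 in untreated and 5.84 to 5.93 in vitamin C arrays. Of 5 germ cell markers, 4 were called higher, with mean levels of 7.20 to 7.38 and 8.21 to 8.30. Of 6 primitive endoderm markers 2 were called higher, and of 5 trophectoderm markers 1 was called lower. The fibroblast and germ cell marker levels moved with the treatment, while most markers of the other lists were not called. The part of any of these markers in the differences above was not tested.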

How the data were processed

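The authors deposited 1 table of log2 values, with 3 untreated and 3 vitamin C arrays. The scale was read from the range of values. RMA is named in the submitters' processing notes, which in general corrects background, normalizes by quantiles and summarises probes; its software is not stated there. Per the labels, RNA was amplified with a whole-transcriptome kit and labelled with biotin. Quantile normalization would hide a shift common to all genes.

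Symbols came from the platform annotation, which can be old. Probe sets with 2 or more different symbols were kept (8 that repeat 1 symbol were not). Families were formed from the leading letters of symbols, and small RNAs, predicted genes and unlike symbols made classes of their own. The members and lists were chosen with earlier results of these data known. All 35557 probe sets were fitted with limma 3.58.1 in R 4.3.3 (lmFit, eBayes, no covariate) with Benjamini-Hochberg adjustment, and SE is the moderated standard error. The fit was tested on simulated data. The rule for naming took 12 probe sets with the largest rise and 12 with the largest fall, all called and without overlap between groups, with each symbol list taken once, and up to 3 called probe sets per family. Further probe sets of the same lists and their single-symbol relatives were named to complete a family, after their values had been seen. Comparing RefSeq proteins was planned, and promoter windows (1417 of 2016 symbols) were used in their place. Precision is limited by the number of arrays.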

Additional observations from a re-analysis of the deposited data

How the results depend on the processing

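Beside 115 higher calls, 50 were made at an adjusted p under 0.01 and 53 to 71 with 1 array left out. Beside 35 lower calls, 60 were made with only probe sets that have a symbol, 60 at an adjusted p under 0.10, 8 at an adjusted p under 0.01, 56 with a pseudocount of 16, 116 with a trended and robust spread, and 9 to 11 with 1 array left out. The other settings kept both counts within 1.5 times, namely centring on array medians, subtracting the trend of the difference against signal, array weights, no moderation, leaving out dim probe sets, and counting equal-value probe sets once (added after seeing the data), except where named here. Same-numbered replicates did not deviate together (correlations 0.029, 0.016 and 0.0073), and with the replicate number as a block 47 were called higher and 2 lower. With probe sets that list at least 1 predicted gene, 83 were higher and 18 lower beside 33 and 8. Of 48 named and called probe sets, 16 kept their call under all 17 settings, and 0 reversed. The causes were not tested.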
